A study of Mus musculus with 146 samples.

Results

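The genes described here code for receptors by which macrophages take up dying cells and for the proteins that bridge a dying cell to such a receptor. The 9 genes are Mertk, Axl, Tyro3, Gas6, Mfge8, Stab1, Timd4, Trem2 and Tyrobp. They were chosen by name, and each matched 1 of the 22721 Ensembl rows of the deposited count table. Of these, 7 also had a row among the 10893 genes of the deposited table of variance-stabilised (VST) values, which are on a log2-like scale. Tyro3 and Timd4 had no row there. The RNA came from bone marrow-derived macrophages of 146 mice, with 60 libraries labelled male and 86 labelled female. All mice were outbred CFW animals, labelled Crl:CFW(SW)-US_P08, of 16 weeks, and both sexes shared the same culture, in which marrow cells were grown in medium conditioned by L929 cells, a fibroblast line that secretes the macrophage growth factor M-CSF. Per the labels no treatment was given, and uptake itself was not measured. The labels also give a plate of libraries (7 plates) and a collection date of the mouse (28 dates, numbered here 1 to 28).

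Cells that die by apoptosis expose phosphatidylserine, a lipid that healthy cells keep on the inner face of their membrane. Some receptors, such as Timd4 (TIM-4) and Stab1 (stabilin-1), bind this lipid directly. The receptor tyrosine kinases Tyro3, Axl and Mertk bind it through the soluble bridge Gas6, and Tyro3 and Mertk also through protein S (Pros1). Mfge8 bridges it to integrins. Trem2 binds lipids and lipoproteins and signals through the adaptor Tyrobp (DAP12), which recruits the kinase Syk. In mouse macrophages Mertk is known for the uptake of dying cells in the resting state, and Axl is known as a receptor raised by interferons and other inflammatory signals.

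Library depth was 14483441 counts in the shallowest library, with a median of 43815187 and a highest value of 120926429. The 8 macrophage marker genes summed to 11640 to 25150 CPM (counts scaled to 1000000 per library) in every library, led by Lyz2. The 11 genes of granulocyte precursors and neutrophils summed to 76.4 to 1734 CPM, led by Mpo, and the 6 monocyte genes to 449 to 4526 CPM, led by F13a1. F13a1 alone averaged 1544 CPM, beside a median sum of 1654 CPM for all 6 monocyte genes, so that sum mostly reflects 1 gene. The 6 osteoclast genes summed to 28.2 to 134 CPM, led by Acp5, and the 6 dendritic cell genes to 15.2 to 126 CPM, led by Itgax. Stromal genes reached at most 68.1 CPM, B cell genes 9.52 CPM, T and NK cell genes 8.19 CPM and erythroid genes 1.22 CPM. The median library had no count for Pax5 or Ncr1, which define B cells and NK cells. Against their labelled sex went 6 libraries, 2 labelled male and 4 labelled female, by the summed CPM of Y-linked genes. They stayed under their labels, and the sex differences of the members are also given without them. The dividing value was 10 CPM. Male 34 had 86.5 CPM of these genes, while the other libraries above that value had 213 to 392 CPM. Male 34 was kept as male, also where the 6 libraries were left out. The labels call each library a separate mouse, and no 2 libraries held identical values.

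The proximal promoters of 5 members are shown first because the comparisons below turn on these genes: Axl for its difference between the sexes and its association with interferon response genes, Mertk as the other receptor kinase that was clearly expressed, Gas6 and Stab1 for their joint variation, and Timd4 for its low and uneven level. Each run holds the 250 bases before the start of the RefSeq gene on assembly GRCm38.p6, written 5′ to 3′ on the gene's strand: Axl at chr7:25788734-25788983 (minus strand), Mertk at chr2:128698665-128698914 (plus strand), Gas6 at chr8:13494536-13494785 (minus strand), Stab1 at chr14:31168642-31168891 (minus strand) and Timd4 at chr11:46810549-46810798 (plus strand). Capitals mark matches to any of 6 motifs, on either strand.
Axl: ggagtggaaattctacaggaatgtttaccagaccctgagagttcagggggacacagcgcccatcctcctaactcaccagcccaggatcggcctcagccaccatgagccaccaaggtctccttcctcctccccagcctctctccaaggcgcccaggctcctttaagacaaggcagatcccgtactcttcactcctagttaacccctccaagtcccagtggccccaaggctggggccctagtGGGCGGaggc
Mertk: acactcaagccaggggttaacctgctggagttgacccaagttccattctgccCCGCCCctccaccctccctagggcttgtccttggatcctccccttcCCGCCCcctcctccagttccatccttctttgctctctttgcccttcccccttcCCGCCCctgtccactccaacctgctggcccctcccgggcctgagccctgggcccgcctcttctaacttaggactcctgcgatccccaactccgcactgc
Gas6: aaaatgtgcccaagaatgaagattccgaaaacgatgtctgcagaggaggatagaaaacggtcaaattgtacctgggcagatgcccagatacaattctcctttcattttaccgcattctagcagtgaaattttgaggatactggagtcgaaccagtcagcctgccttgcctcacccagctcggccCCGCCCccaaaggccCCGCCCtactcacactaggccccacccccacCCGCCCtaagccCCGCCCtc
Stab1: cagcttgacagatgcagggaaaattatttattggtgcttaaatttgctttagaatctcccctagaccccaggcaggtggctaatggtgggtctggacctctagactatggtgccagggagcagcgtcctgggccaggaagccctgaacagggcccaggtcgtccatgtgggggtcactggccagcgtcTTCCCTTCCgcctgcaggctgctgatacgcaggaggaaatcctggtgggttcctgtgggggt
Timd4: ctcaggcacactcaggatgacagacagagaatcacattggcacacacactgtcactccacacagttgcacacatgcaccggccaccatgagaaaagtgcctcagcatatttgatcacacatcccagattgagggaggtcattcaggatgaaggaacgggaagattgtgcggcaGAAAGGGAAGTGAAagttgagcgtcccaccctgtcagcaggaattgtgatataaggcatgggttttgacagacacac
The motifs searched were the ETS-IRF composite GGAANNGAA, the core of the interferon-stimulated response element GAAANNGAA, a STAT palindrome TTCNNNGAA, a PU.1-type ETS site GAGGAAGT, the E-box CACGTG and the GC box GGGCGG. They were chosen after the sequences had been seen. Over 300 bases, from 250 before the gene start to 50 after it, at least 1 match was held by 9.42% of 27025 genes for the ETS-IRF composite, 9.76% for the response element core, 9.55% for the STAT palindrome, 3.69% for the PU.1-type site, 8.09% for the E-box and 38.2% for the GC box. Of the 9 members, 8 had a promoter in the RefSeq table. GC boxes were present in the windows of Mertk, Axl, Tyro3, Gas6 and Mfge8, and those of Stab1, Timd4 and Trem2 held no GC box. Among the 8 windows, only those of Timd4 and Stab1 held a match to another of the 6 motifs. Timd4 held the ETS-IRF composite, a kind of site bound jointly by the macrophage factor PU.1 and an interferon regulatory factor, at bases -72 to -64 from the gene start, overlapping a response element core at bases -77 to -69. Stab1 held the ETS-IRF composite on the opposite strand, at bases -62 to -54. The letters of the response element core were not in the Axl window. A match or its absence describes only the letters of these windows.

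The levels of the 9 genes spanned several orders of magnitude. In CPM, which is not divided by gene length, over the 146 libraries (lowest, median and highest), Stab1 had 571, 1220 and 1979, and Tyrobp had 429, 585 and 805. Gas6 had 247, 549 and 849, and Trem2 had 346, 482 and 742. Axl had 41.7, 136 and 414. Mfge8 had 29.7, 52.5 and 113, and Mertk had 21.6, 49.5 and 116. Timd4 had 0.0718, 0.658 and 3.09 CPM, from 5329 counts in all, and every library had at least 3 counts. Tyro3 had 0, 0.127 and 0.409 CPM, from 1032 counts in all, with 7 libraries at 0. A count of 0 allows up to 3 counts, which is 0.207 CPM in the shallowest and 0.0248 CPM in the deepest library (counting error alone), so the Tyro3 values lay near what 1 library can resolve.

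To set genes side by side, CPM was divided by the length of their annotated exons. Median CPM per kb was 877 for Tyrobp, 216 for Gas6, 119 for Stab1, 97.5 for Trem2, 27.1 for Axl, 11.4 for Mertk, 11.2 for Mfge8, 0.303 for Timd4 and 0.0205 for Tyro3. Mertk and Mfge8 are neighbours in this order that did not differ beyond their spread, as were Stab1 and Trem2. With the length of the principal transcript in place of all annotated exon bases, Trem2 stood at 443 CPM per kb, above Gas6 at 216 and Stab1 at 152, since the annotated exons of Trem2 cover 4946 bases and its principal transcript 1088. Mfge8 then stood at 24.7 and Mertk at 11.5 CPM per kb. The places of Trem2 and Mfge8 in the order therefore depend on the length used. By either length, the adaptor exceeded its receptor in every library: the ratio of Trem2 to Tyrobp per kb was at most 0.148 with all exon bases and at most 0.568 with principal transcripts. The bridge Gas6 exceeded both of its well-expressed receptors per kb in 146 of 146 libraries, with a median ratio of 18.8 to Mertk and 7.94 to Axl. Axl exceeded Mertk per kb in 141 of 146 libraries, with a median ratio of 2.35.

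The loci lie on 6 chromosomes of GRCm38. Mertk (ENSMUSG00000014361) spans chr2:128698956-128802894, Tyro3 (ENSMUSG00000027298) chr2:119797733-119818104, Axl (ENSMUSG00000002602) chr7:25757273-25788705, Tyrobp (ENSMUSG00000030579) chr7:30413760-30417585 and Mfge8 (ENSMUSG00000030605) chr7:79133768-79149060. Gas6 (ENSMUSG00000031451) spans chr8:13465374-13494490, Timd4 (ENSMUSG00000055546) chr11:46810800-46844332, Stab1 (ENSMUSG00000042286) chr14:31139013-31168641 and Trem2 (ENSMUSG00000023992) chr17:48346401-48354147. Gas6 shared 34 exon bases with Tmem255b and Stab1 shared 112 with Nt5dc2, each on the opposite strand, and the other 7 members shared none with another gene.

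The members differed in how widely they varied between mice. The 90th percentile of CPM over the 10th was 5.68 for Timd4, 2.55 for Axl, 2.09 for Mertk, 1.94 for Mfge8, 1.89 for Gas6, 1.84 for Stab1, 1.51 for Trem2 and 1.43 for Tyrobp. The wide ratio of Timd4 includes the counting error of its few reads. Among the 10893 genes with VST values, the SD of Axl over mice (0.55 on the VST scale) stood at percentile 97.3, Mertk (0.39) at percentile 92.4 and Mfge8 (0.37) at percentile 91.1. Gas6 (0.36) stood at percentile 90.7, Stab1 (0.33) at percentile 87.7, Trem2 (0.25) at percentile 75.8 and Tyrobp (0.21) at percentile 64.7. The median SD of all VST genes was 0.18, so all 7 members lay above it.

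Axl was lower in macrophages labelled male, and Stab1 and Gas6 were modestly higher in them. In edgeR's quasi-likelihood test with plate as a covariate, 5.02% of 12060 genes differed by sex at a Benjamini-Hochberg adjusted p under 0.05, and 3 of the 8 members tested did. Higher in males were 2.17% of all genes and 2 of these 8 members, and lower were 2.84% of all genes and 1 member. Tyro3 did not pass the filter on low counts and was not tested. Here and below, fewer cells with a transcript and less transcript per cell cannot be told apart, since each library is a bulk sample.

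Axl had 41.7, 114 and 296 CPM in males, against 58.5, 162 and 414 CPM in females (lowest, median and highest). The 60 males averaged 119 ± 39 CPM and the 86 females 174 ± 66.7 CPM (mean ± SD), and the ranges overlapped. The fitted log2 difference, male over female, was -0.50 ± 0.08 (SE), with an edgeR adjusted p of 4.80e-06. Axl was lower in males on 6 of 7 plates, by log2 differences from -0.79 on plate 2 to -0.38 on plate 10, and on plate 8, which held 5 of the 6 libraries against their labels, the difference was 0.07. None of these single-plate differences passed the adjusted test, where groups were as small as 2 males and 4 females. Without the 6 libraries that went against their labels, Axl differed by -0.56 with an edgeR adjusted p of 4.26e-08, and the sex-by-plate term of edgeR was not past the threshold for any member (5 genes, or 0.0415% of all tested, passed it).

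Other gene lists are set here beside the sex difference of Axl. The 16 interferon response genes summed to 131 to 731 CPM in males (median 261), against 108 to 944 CPM in females (median 284). Their median log2 difference was -0.27, while that of all genes tested was 0.00. None of the 16 passed the test on its own. With a score of this list as a covariate, chosen after the data were seen, Axl differed by -0.42, with an edgeR adjusted p of 2.68e-06. The 5 stromal genes summed to at most 13.1 CPM in males, with a median of 1.55, against at most 68.1 CPM in females, with a median of 3.39, and 2 of the 3 that were tested (Col1a1 and Col1a2) were lower in males. The part of stromal transcripts in the Axl difference was not tested. Higher in males were 2 of the 8 macrophage markers and 2 of the 10 targets of the liver X receptors (described below), beside 2.17% of all genes.

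Stab1 had 571, 1300 and 1979 CPM in males, against 617, 1177 and 1866 CPM in females (lowest, median and highest). Its log2 difference was 0.19 ± 0.05 (SE), with an edgeR adjusted p of 0.0152, and the ranges overlapped almost fully. Without plate 3, Stab1 differed by 0.16 with an adjusted p of 0.102 by edgeR. Gas6 had 314, 574 and 766 CPM in males, against 247, 495 and 849 CPM in females. Its log2 difference was 0.19 ± 0.06, with an edgeR adjusted p of 0.0301. With collection date in place of plate, Gas6 differed by 0.14 and missed the edgeR threshold at an adjusted p of 0.132, and it also missed it without plate 2, 3, 4, 7 or 10 (adjusted p 0.0503 to 0.189) and with lane as a covariate (0.0762). Granulocyte precursor genes summed to 76.4 to 1440 CPM in males (median 302) and to 98.5 to 1734 CPM in females (median 386). With a score of that list as a covariate, Stab1 differed by 0.13 (edgeR adjusted p 0.0414) and Gas6 by 0.15 (0.0513). Without the 6 libraries that went against their labels, Stab1 differed by 0.21 (edgeR adjusted p 0.00338) and Gas6 by 0.20 (0.0172).

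Mertk, Trem2, Tyrobp, Mfge8 and Timd4 gave no call by sex. Timd4 had 0.133, 0.843 and 3.09 CPM in males, against 0.0718, 0.584 and 2.57 CPM in females, a fitted log2 difference of 0.35 with an edgeR adjusted p of 0.168. The fitted log2 differences of the other 4 were 0.06 for Mertk, 0.07 for Trem2, 0.04 for Tyrobp and -0.04 for Mfge8, with edgeR adjusted p from 0.287 to 0.779. Without the 6 libraries against their labels these 5 members again gave no call, with edgeR adjusted p from 0.176 to 0.754. Sex took up 19.4% of the variance of VST values in Axl, 7.73% in Gas6, 6.00% in Stab1 and under 4% in the other 5 (log2 CPM for Timd4). Of 69 other genes of dead cell uptake that were tested, 5 differed by sex, near the share over all genes (5.02%). Sirpa, the receptor for the "don't eat me" signal Cd47 (log2 difference 0.08), Rab7, a GTPase of late phagosomes (0.06), and Stab2, the paralogue of Stab1 (0.34), were higher in males. Cx3cr1, the receptor for the "find me" chemokine fractalkine (-0.28), and Plcg2, a phospholipase downstream of Tyrobp and Syk (-0.09), were lower in males, with edgeR adjusted p from 0.0160 to 0.0426 for these 5.

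**Figure D1:**
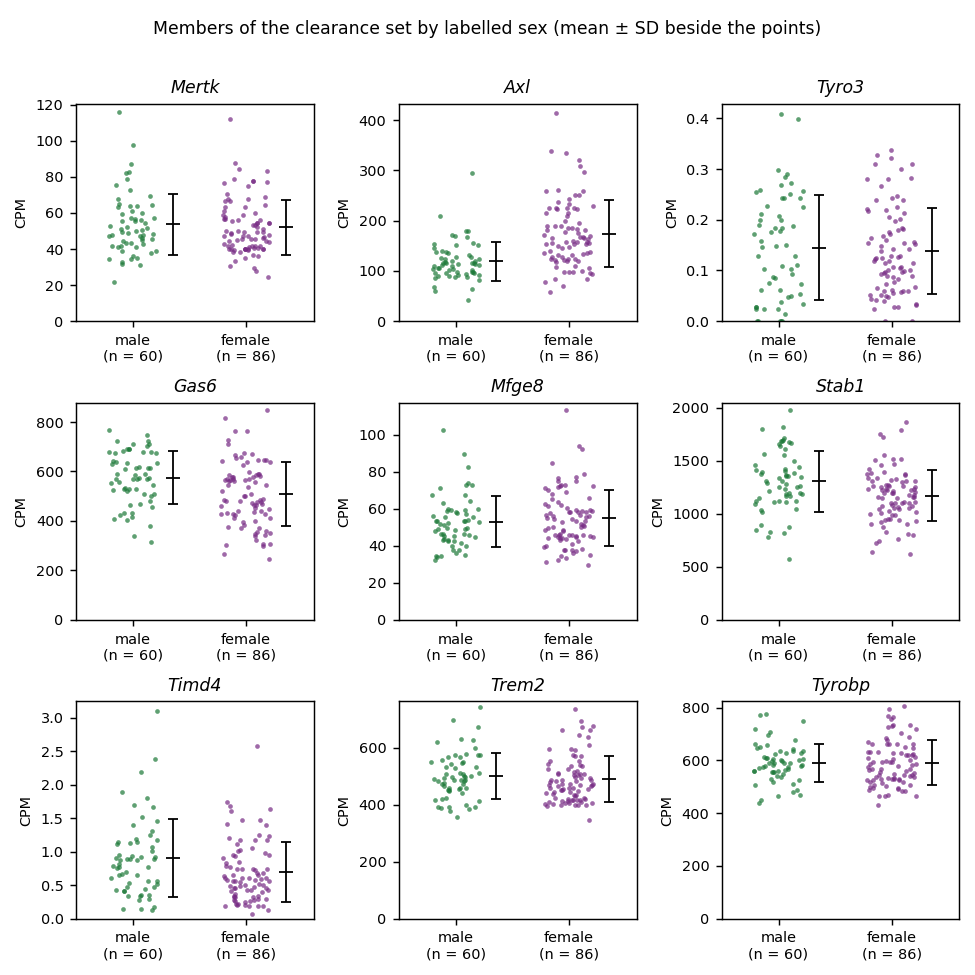
CPM of each of the 9 members in 60 male and 86 female libraries, 1 point per library, with the mean and SD beside the points and linear axes from 0. Axl is the member called lower in males, at a median of 114 CPM against 162 CPM in females, and the ranges of the sexes overlap for every member.

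Levels moved with the plate and the collection date, as they did for most genes. Plate differences passed the edgeR test for 74.8% of all 12060 genes and for 5 of 8 members, namely Tyrobp, Trem2, Axl, Stab1 and Gas6, and not for Mertk (adjusted p 0.0975), Timd4 (0.0580) or Mfge8 (0.321). Tyrobp was highest on plate 10, with a median of 697 CPM, against medians of 523 to 609 CPM on the other 6 plates. Trem2 was also highest there, at a median of 560.4 CPM, against 419 to 499 CPM elsewhere. Axl was highest on plate 3, at a median of 188 CPM, and so was Stab1, at 1514 CPM. Plate took up 44.2% of the variance of Tyrobp, 30.7% of Trem2, 16.1% of Axl, 7.37% of Mertk and 5.00% of Mfge8, beside a median of 15.6% over all VST genes.

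Collection date passed the edgeR test for 87.6% of all genes and for 8 of 8 members, a share near the background. Within plates it passed for 69.2% of genes and for 7 of 8 members, Mfge8 missing it at an adjusted p of 0.0554 and Axl passing at 0.0499. Mertk differed widely between some dates. Its 5 libraries of date 8 had 70.5, 72.9, 83.3, 112 and 116 CPM, and its 5 libraries of date 2 had 21.6, 24.6, 34.4, 34.6 and 41.8 CPM. These were the highest and the lowest date medians among the 22 dates with at least 3 libraries, chosen after their values were seen, and the 2 dates did not overlap. Date took up 43.5% of the variance of Mertk, near the median of 40.2% over all VST genes, while plate took up 7.37%. These shares were not adjusted for the number of coefficients, 27 for date and 6 for plate, so date and plate cannot be compared by them directly.

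The dates at which a member was high differed between members, again among the 22 dates with at least 3 libraries. Stab1 also had its highest date median on date 8, at 1799 CPM, and its lowest on date 23, at 723 CPM. Trem2 was highest on date 22, at a median of 636 CPM, and nearly as high on date 2, at 631 CPM, the date on which Mertk was lowest. Its lowest date median was 398 CPM on date 16. Tyrobp had date medians from 510.0 CPM on date 15 to 728 CPM on date 23. Axl had date medians from 90.7 CPM on date 27 to 190 CPM on date 9, and Timd4 from 0.214 CPM on date 10 to 1.11 CPM on date 21. Of the 28 dates, 18 lay on 1 plate and the others on 2 or 3.

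**Figure D2:**
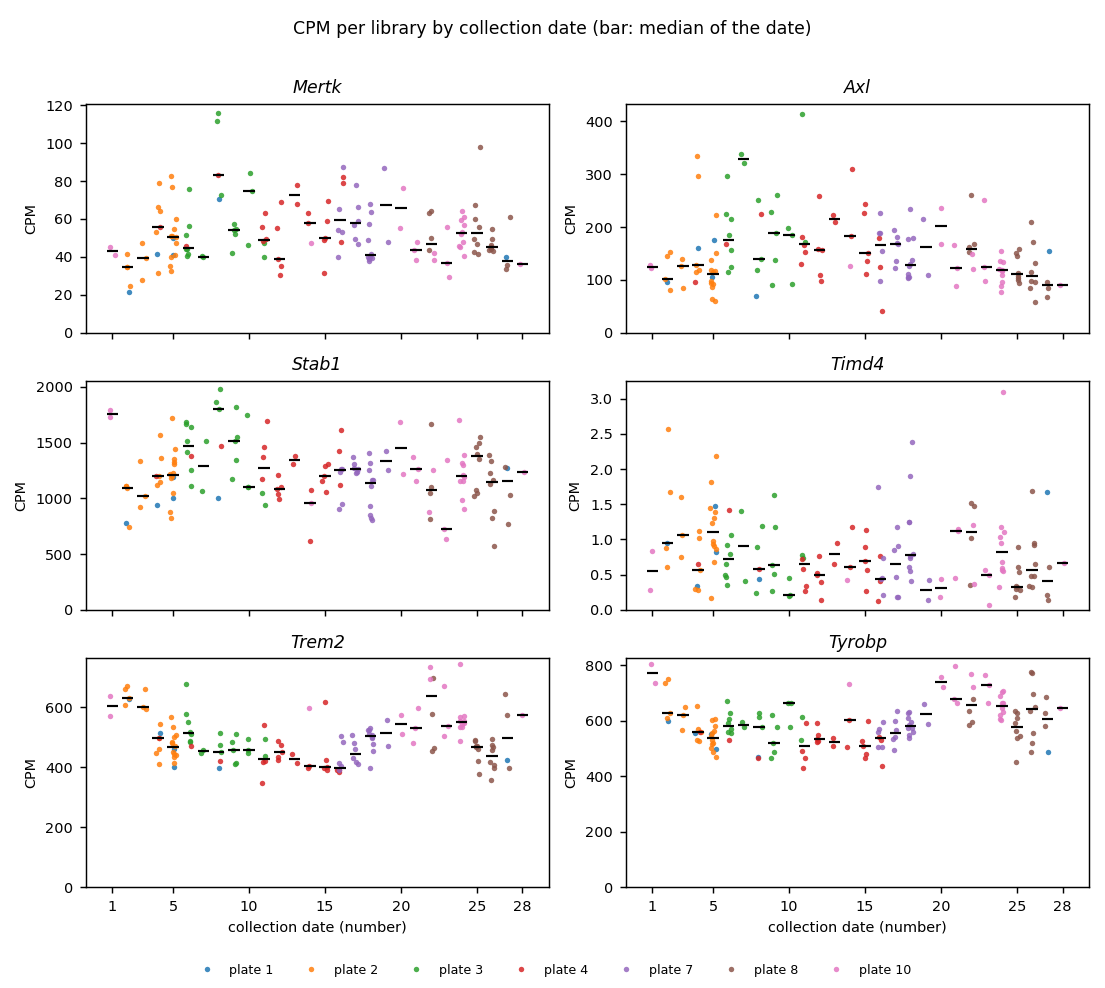
CPM of 6 members in each of 146 libraries by collection date, numbered 1 to 28, coloured by plate, with a bar at the median of each date. Mertk is high on date 8 (70.5 to 116 CPM) and low on date 2 (21.6 to 41.8 CPM), and Tyrobp is high in the libraries of plate 10.

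Over mice, the closest positive relations ran among Trem2, Tyrobp and Mfge8, and from Stab1 to Gas6 and to Mertk. Associations were read after removal of plate and sex, from limma's moderated test of every VST gene on the z-scored value of 1 member, and a pair was called when both directions passed an adjusted p of 0.05. Of 21 pairs among the 7 members with VST values, 12 were called, 7 positive and 5 negative. Such calls were common, since the fit on Trem2 called 66% of 10892 genes, that on Mertk 61.1%, on Stab1 52.4%, on Tyrobp 52%, on Mfge8 48.8%, on Gas6 32.1% and on Axl 28.7%. The size of r is therefore given with each called pair, and the rank of the partner among all genes by rho with the positive ones between VST members. Values of r within single plates, here and with the scores below, were taken without removal of sex from the members' values. Plate 1 held only 6 libraries. All permutation tests of r and rho were two-sided, with 100000 permutations, over a family of 28 pairs, and the smallest p they can give is 1e-05.

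Trem2 and its adaptor Tyrobp were the closest pair. Their Pearson r was 0.665 and Spearman rho 0.687 over 146 libraries (permutation p 1e-05 for each, limma adjusted p 1.78e-16), and r was 0.501 to 0.968 within the 7 plates. Without the 2 libraries farthest from the median of Trem2, r was 0.675. It was 0.690 with date in place of plate and 0.550 after removal of the first principal component. That component was taken from the VST genes other than the members, after removal of plate and sex, and carried 25.9% of their remaining variance. Among 10892 genes ranked from the highest rho, Trem2 was 4th for Tyrobp, and Tyrobp was 55th for Trem2. Mfge8, the bridge to integrins, was positively associated with both: r was 0.444 with Tyrobp (rho 0.433, limma adjusted p 1.12e-06, same sign on 6 of 7 plates) and 0.369 with Trem2 (rho 0.360, 6.08e-05, 7 of 7 plates). These r were 0.308 with Tyrobp and 0.112 with Trem2 without the first principal component, the second not called. Tyrobp ranked 145th and Trem2 457th for Mfge8, and Mfge8 ranked 388th for Tyrobp and 1575th for Trem2.

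Gas6 and Stab1 were the second closest pair, with r 0.599 and rho 0.532 (permutation p 1e-05, limma adjusted p 1.51e-12), and r was 0.244 to 0.768 within plates. Their r was 0.628 without the 2 libraries farthest from the median, 0.656 with date in place of plate and 0.653 without the first principal component. Stab1 ranked 41st for Gas6 and Gas6 77th for Stab1. Mertk joined Stab1 with r 0.446 (rho 0.472, limma adjusted p 3.88e-07, 7 of 7 plates), which was 0.183 and not called without the first principal component; Mertk ranked 225th for Stab1 and Stab1 592nd for Mertk. Gas6 was also associated with Trem2, with r 0.306 and rho 0.356 (limma adjusted p 0.00174, 7 of 7 plates), and r was 0.472 without the first principal component. Trem2 ranked 417th for Gas6, and Gas6 1613th for Trem2.

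The bridge Gas6 did not vary with its receptors beyond the test. Its r was 0.013 with Mertk (limma adjusted p 0.924, -0.555 to 0.311 within plates) and 0.097 with Axl (0.397, -0.379 to 0.877 within plates). The -0.555 and the 0.877 came from plate 1, which held 6 libraries. The 2 receptor kinases were weakly associated with each other: r was 0.218 (rho 0.215, limma adjusted p 0.0371), with a positive sign on 5 of 7 plates, and it was 0.002 without the first principal component. Mertk ranked 1466th for Axl, and Axl 3023rd for Mertk. Timd4, measured on log2 CPM since it had no VST row, was associated with Gas6 at r 0.367 and rho 0.345 (limma adjusted p 0.00158, 7 of 7 plates), where the fit on Timd4 called 8.47% of 12059 genes. Timd4 was also called with Mfge8, at r -0.243 (limma adjusted p 0.0469), and with none of the other 5 members. With date in place of plate the fit on Timd4 called 17 of the 12059 genes, and neither pair passed: r was 0.345 with Gas6 (limma adjusted p 0.0626) and -0.217 with Mfge8 (0.351).

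Mertk and Trem2 varied in opposite directions, with r -0.445 and rho -0.420 (permutation p 1e-05, limma adjusted p 2.11e-07). The r was negative on 7 of 7 plates, from -0.886 on plate 1, which held 6 libraries, to -0.051 on plate 3. Their r was -0.373 with date in place of plate. Without the first principal component it was -0.005, and that component had an absolute r of 0.669 with Trem2 and 0.661 with Mertk. The other called negative pairs were weaker: Axl and Mfge8 (r -0.261), Gas6 and Mfge8 (-0.233), Mertk and Tyrobp (-0.222) and Mfge8 and Stab1 (-0.203), with limma adjusted p from 0.0113 to 0.0342. With date in place of plate, 2 of these were not called: Mertk and Tyrobp had r -0.089 (limma adjusted p 0.444) and Gas6 and Mfge8 r -0.187 (0.111). Without the 6 libraries against their labelled sex, Gas6 and Mfge8 had r -0.202 (0.0572 by limma) and Mfge8 and Stab1 r -0.170 (0.0953). Without the first principal component, Mertk and Tyrobp had r 0.111, Mfge8 and Stab1 r 0.017 and Axl and Mfge8 r -0.138, none called.

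**Figure D3:**
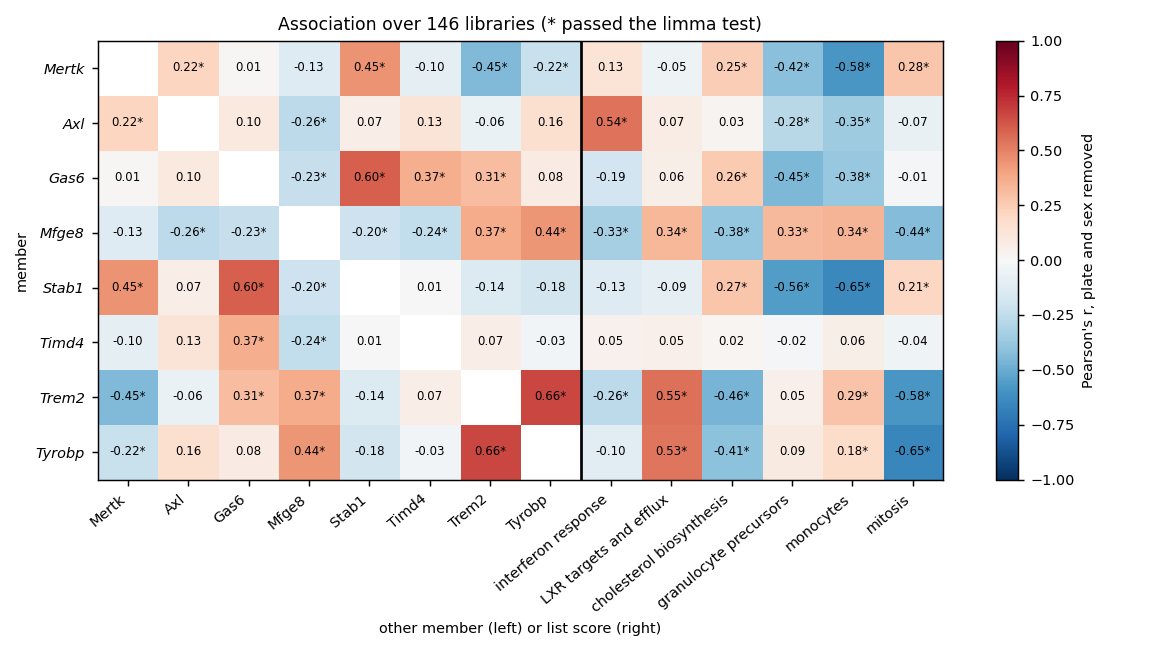
Pearson's r over 146 libraries, plate and sex removed, of each of 8 members with each other member (left of the line) and with 6 gene list scores (right of the line), where a star marks a relation that passed the limma test. Timd4 is on log2 CPM and the others on VST values. The highest value between members is 0.665, of Trem2 with Tyrobp, and the strongest value with a score is -0.653, of Tyrobp with mitosis.

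Scores of 6 gene lists showed which programmes the members went with. Each score is the mean z-score of the VST values of a list, with plate and sex removed, and 29 of 42 relations with the 7 members passed the limma test. Such calls were common here too, since the fits called from 33.4% (interferon response) to 66.3% (monocytes) of 10893 genes. The 6 relations of Timd4, which complete the family of 48, were not called. For scores without the first principal component, here and below, r and the call came from separate calculations. For r the component left out only the members. For the call it also left out the genes of the list, so that r and that call do not share the same component.

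Axl went with the interferon response genes, which carry out the antiviral response. Its r with their score was 0.543 and rho 0.516 (permutation p 1e-05, limma adjusted p 3.68e-10), positive on 7 of 7 plates at 0.232 to 0.643, and the fit on this score called 33.4% of 10893 genes. The r was 0.526 without the 2 libraries farthest from the median, 0.477 in males, 0.580 in females, 0.522 with date in place of plate and 0.484 without the first principal component. Axl rose by 0.24 ± 0.03 (SE) on the VST scale per SD of the score. Mfge8 and Trem2 went the other way, with r -0.329 and -0.260 (limma adjusted p 0.000873 and 0.00992). Without the first principal component these were -0.209 for Mfge8 and -0.037 for Trem2, neither called.

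Trem2 and Tyrobp went with the targets of the liver X receptors (LXR), nuclear receptors that respond to cholesterol and drive its export. Their r was 0.551 and 0.533 (rho 0.485 and 0.522, limma adjusted p 1.05e-10 and 5.67e-10, each positive on 7 of 7 plates), and Mfge8 had r 0.335. The fit on this score called 54.6% of genes. After removal of the first principal component r was 0.349 for Trem2, 0.405 for Tyrobp and 0.157 for Mfge8, the last not called. With the enzymes of cholesterol synthesis the same 3 genes had negative r, at -0.461 for Trem2, -0.413 for Tyrobp and -0.385 for Mfge8. Stab1 (0.274), Gas6 (0.263) and Mertk (0.245) had positive r with synthesis, where the fit called 62.8% of genes. Without the first principal component, Gas6 (0.274) and Tyrobp (-0.219) were called with synthesis. The other 4 were not, at r -0.139 for Trem2, -0.186 for Mfge8, -0.203 for Mertk and -0.0035 for Stab1. The sign of Trem2 and of Tyrobp with synthesis was the same on 5 of 7 plates, and that of Mfge8 on 7 of 7.

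The mitosis score had its strongest relations with Tyrobp (r -0.653, rho -0.619, -0.855 to -0.415 within plates) and Trem2 (r -0.582, rho -0.486, -0.935 to -0.075 within plates), and Mfge8 had r -0.437. Permutation p was 1e-05 for each of these 3 r, limma adjusted p was at most 4.02e-07, and the fit called 58.1% of genes. After removal of the first principal component, the r with mitosis was -0.549 for Tyrobp, -0.367 for Trem2 and -0.272 for Mfge8. Mertk had r 0.279 with mitosis, and with date in place of plate it was 0.047 and not called. Stab1 was also called with mitosis, at r 0.205, and was not with date in place of plate.

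Stab1, Mertk, Gas6 and Axl were low where transcripts of monocytes and granulocyte precursors were high. With the monocyte score, which includes Ccr2 and Ly6c2, r was -0.647 for Stab1 (rho -0.665, limma adjusted p 9.81e-17, -0.699 to -0.519 within plates), -0.582 for Mertk (rho -0.576), -0.377 for Gas6 and -0.354 for Axl, where the fit called 66.3% of genes. With the granulocyte precursor score, r was -0.557 for Stab1, -0.447 for Gas6, -0.418 for Mertk and -0.278 for Axl, where the fit called 50.7% of genes. Without the first principal component, Stab1 kept r -0.483 with monocytes and -0.390 with granulocyte precursors, and Mertk had -0.141 and -0.079, neither called. Gas6 then had r -0.522 with monocytes and -0.495 with granulocyte precursors, and Axl -0.166 and -0.122, neither of the 2 of Axl called. Mfge8 had positive r with both scores (0.340 and 0.327), which were -0.0044 and 0.111 without that component, neither called, and Trem2 with monocytes had r 0.285, which was -0.511 without the first principal component. Whether these relations follow the mix of cells in a culture or the state of its macrophages was not tested.

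**Figure D4:**
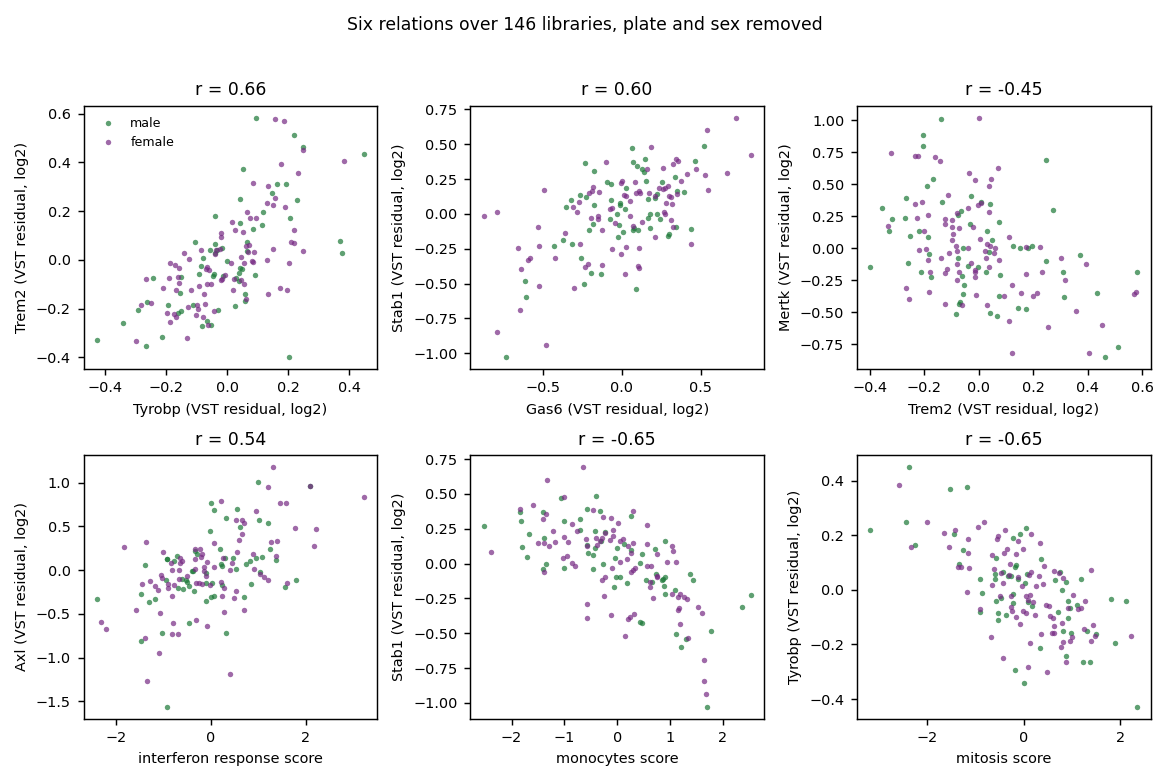
Residuals of VST values after removal of plate and sex, or list scores in SD units, for 6 relations over 146 libraries, with males and females in separate colours. The panels show Trem2 with Tyrobp (r 0.665), Stab1 with Gas6 (0.599), Mertk with Trem2 (-0.445), Axl with the interferon response (0.543), Stab1 with monocytes (-0.647) and Tyrobp with mitosis (-0.653).

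The genes whose pattern over mice was most like each member were ranked by Spearman rho over the 146 libraries, plate and sex removed, as a description. Axl had the interferon-related genes Lgals3bp (rho 0.638), Oas3 (0.592), Oasl2 (0.586), Irf7 (0.569) and Oas2 (0.567) as its 5 highest, where Oas2 and Oas3 are antiviral enzymes and Irf7 is a regulator of interferon genes. At the other end it had Wfdc17 (-0.565), B4galt6 (-0.560) and Adamts1 (-0.546). Only 25 genes exceeded a rho of 0.5 with Axl, against 611 with Trem2 and 428 with Mertk.

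Trem2 was closest to Npc2, the lysosomal protein that carries cholesterol out of lysosomes (rho 0.807), followed by Atraid (0.788), Dpm3 (0.776), Tmem50a (0.776) and Saraf (0.769). Its lowest values were with Brca2 (-0.802), Atad5 (-0.792) and Atad2 (-0.772), genes of DNA repair, replication and chromatin. Tyrobp was closest to Cst3, the protease inhibitor cystatin C (0.755), and Hexa, a lysosomal hexosaminidase subunit (0.725), then Pfdn5 (0.704), Sdf4 (0.683) and Ergic3 (0.671). It was lowest with Kif15 (-0.703), Nup155 (-0.674) and Mki67, a marker of cycling cells (-0.672). Mfge8 was closest to Psap, the precursor of the saposins that help to degrade sphingolipids in lysosomes (0.659), then Tst (0.622), Ypel3 (0.618), Pld3 (0.605) and Ecm1 (0.597), and among its lowest were Itsn1 (-0.558) and Ccnd1 (-0.547). Genes like Trem2 and Tyrobp were short: the median exon length of the 100 genes with the highest rho was 2572 bases for Trem2 and 2292 for Tyrobp, that of the 100 lowest was 6425 and 6498, and that of all genes was 4522. An index of how each library's values depended on exon length had r -0.377 with Trem2 and -0.453 with Tyrobp. With that index removed, an alternative chosen after the data were seen, the r of Trem2 with Tyrobp was 0.599. The rho of Tyrobp was then -0.651 with Kif15, -0.656 with Nup155 and -0.590 with Mki67. For Trem2 it was -0.740 with Brca2, -0.788 with Atad5 and -0.768 with Atad2. The relations with the mitosis score above are given without removal of that index.

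Stab1 was closest to Slc12a7 (0.763), Scamp5 (0.679), Nrp2 (0.663), Igfbp4 (0.658) and Syngr1 (0.643), and lowest with Il18rap (-0.723) and the 2 markers of inflammatory monocytes Ccr2 (-0.694) and Ly6c2 (-0.673). Gas6 was closest to Snx8 (0.713), Sorbs3 (0.661), Slc9a9 (0.649), Cmtm4 (0.646) and Ttyh2 (0.638), and lowest with Met, the receptor of hepatocyte growth factor (-0.645), Gpc1 (-0.636) and Nlrc5, an activator of MHC class I genes (-0.606). Mertk was closest to Nuak1 (0.770), Pald1 (0.769), Fmn1 (0.760), Inpp5d (0.749) and Bmp2k (0.740), where Inpp5d codes for SHIP1, a phosphatase that limits signals through Tyrobp. It was lowest with Gas7 (-0.779), Irf4 (-0.733) and Rarg (-0.728). Some named partners shared 50-base stretches with other genes, so their counts are less certain. The largest shares were 24.0% for Bmp2k, 21.6% for Ccnd1, 18.0% for Gpc1, 17.9% for Pfdn5, 14.5% for Ly6c2, 12.8% for Atraid and 10.6% for Hexa.

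**Figure D5:**
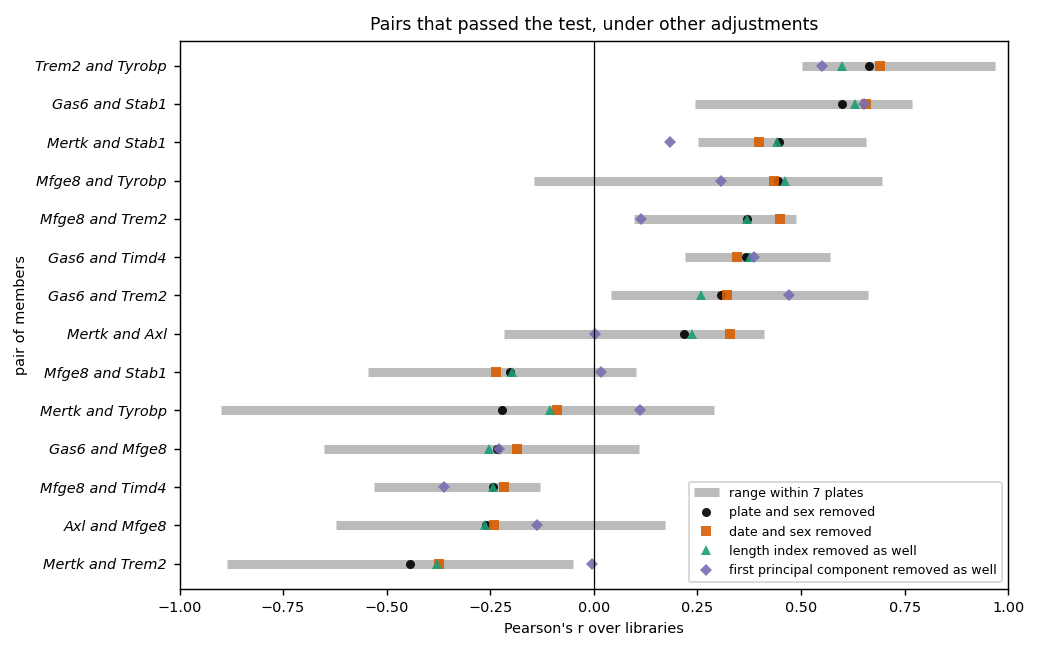
Pearson's r of the 14 called pairs of members, with plate and sex removed (circles), date and sex removed (squares), the length index removed as well (triangles) or the first principal component removed as well (diamonds). Grey bars give the range within 7 plates, where sex was not removed. Trem2 with Tyrobp stays between 0.550 and 0.690, and Mertk with Trem2 lies at -0.445 before and at -0.005 after removal of the first principal component.

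Other genes of dead cell uptake were counted over a list of 73, of which 69 were tested for plate and date and 66 had VST values. Plate differences passed for 51 of 69, beside 74.8% of all genes, and date differences for 66 of 69, beside 87.6% of all genes. The list of 8 tested genes of the engulfment machinery, which rearranges actin around the prey, was counted for each member: with Stab1, 6 were positive and 1 negative, with Mertk 5 and 2, with Axl 3 and 1, with Gas6 2 and 2, with Mfge8 0 and 4, with Trem2 2 and 6, and with Tyrobp 0 and 6. Differences between members in these counts were not tested. Rac1, the most highly expressed gene of the engulfment list, shared 50.3% of its 50-base stretches with another gene. Over all genes, the fit on Stab1 called 26.6% positive and 25.8% negative, that on Mertk 32% and 29.1%, on Axl 14.5% and 14.2%, on Gas6 16.5% and 15.7%, on Mfge8 22.5% and 26.3%, on Trem2 32.6% and 33.5%, and on Tyrobp 25.1% and 26.9%. Elmo1, the partner of Dock family exchange factors, had rho 0.553 with Mertk and -0.590 with Trem2, and Vav1, another exchange factor, 0.706 and -0.501. The C1q subunits C1qa and C1qc, which opsonise dying cells, had rho 0.562 and 0.583 with Mertk and 0.499 and 0.488 with Stab1. The third subunit, C1qb, had rho 0.227 with Mertk and 0.272 with Stab1. The 4 tested receptors that also signal through Tyrobp (Trem1, Trem3, Clec5a and Sirpb1a) were all negative with Gas6, at rho -0.471 to -0.258, where the fit on Gas6 called 15.7% of genes negative. Sirpb1a shared 40.4% of its 50-base stretches with other genes. Pros1, the other bridge to Mertk and Tyro3, had rho -0.347 with Gas6 and -0.389 with Axl, and 0.160 with Mertk. Syk, the kinase recruited by Tyrobp, had rho 0.558 with Trem2, 0.536 with Mfge8 and 0.442 with Tyrobp. It was the only positive call with Trem2 among the 5 listed genes of Tyrobp signalling. The other 4 were negative with Trem2, at rho -0.518 for Plcg2, -0.376 for Inpp5d, -0.341 for Btk and -0.298 for Card9. These examples were chosen after their values were seen.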

How the data were processed

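Per the submitters' processing notes, reads were aligned with TopHat2 2.0.11 to GRCm38 (mm10), counted with HTSeq 0.6.1 and normalised with DESeq2. The annotation release and the strand setting of the counting are not given in the sources used here. The authors deposited raw counts for 22721 genes and VST values on a log2 scale, per the file headers and the values, for 10893 genes. From the deposited counts, CPM was computed on total counts, and per kb with GENCODE M21 exons. Differences by sex, plate and date were fitted with edgeR 4.0.16 (TMM, filterByExpr, quasi-likelihood test, 12060 genes, 8 members). Associations used limma 3.58.1, in R 4.3.3, on VST values, or on log2 CPM for Timd4, with plate and sex removed. DESeq2 1.42.0 served as an alternative. The tests were tried on simulated data. Of the 9 members, 7 had VST values and 8 passed the filter on low counts. The members and gene lists were chosen with earlier results of these data known. Named partners are the 5 highest and 3 lowest genes by rho, leaving out members and unnamed loci; 1 such gene is not reported here. From the other clearance genes, up to 6 were named by smallest p for the difference by sex. Those given with their rho to members were chosen after their values were seen. Intervals for zero counts cover counting error only.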

Additional observations from a re-analysis of the deposited data

Results flagged for a closer look

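Within the 16 collection dates of 4 to 10 libraries and within plate 1, the 1 plate of that size, 153 sets of values (a member on a date or plate) were screened for 1 library that stood far from the rest by Dixon's criterion, and 12 stood out, all on dates and all as the highest library. For normally distributed values, chance flags about 1 in 20 such sets. The screen used CPM without a log transform, and whether these values follow that distribution was not tested. Axl reached 414 CPM in female 40 on date 11, where the other 5 libraries had 131 to 182 CPM, and 259.9 CPM in female 78 on date 22, where the others had 121 to 169 CPM. Mertk reached 75.7 CPM in male 24 on date 6 (others 40.3 to 56.6) and 97.9 CPM in male 53 on date 25 (others 41.5 to 67.6). Trem2 reached 618 CPM in male 37 on date 15 (others 389 to 424) and 742 CPM in male 5 on date 24 (others 488 to 569.6). Tyrobp reached 653 CPM in female 23 on date 4 (others 527 to 571).

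The rarely counted receptors gave 5 of the 12. Timd4 reached 3.09 CPM in male 6 on date 24, its highest value in the series, where the other 9 libraries had 0.325 to 1.17 CPM. It also reached 1.74 CPM in female 64 on date 16 (others 0.133 to 0.765) and 1.69 CPM in male 56 on date 26 (others 0.318 to 0.951). Tyro3 reached 0.400 CPM in male 31 on date 12 (others 0.101 to 0.175) and 0.301 CPM in female 63 on date 17 (others 0.0936 to 0.157), both in the range of few counts.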

How the results depend on the processing

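The number of members that differed by sex was 3, and 1 without plate 3; the number that differed by plate was 5, and 3 without plate 3 (Axl and Stab1 no longer passed). Among 39 recomputed counts of calls, these 2 moved by more than 1.5 times and 37 did not. Axl kept its sign and its call by sex under every alternative run. With the first principal component removed, among relations called before or after that step, signs turned for 4 pairs: Mertk with Mfge8 (r 0.240), Mertk with Tyrobp (0.111), Mfge8 with Stab1 (0.017) and Stab1 with Trem2 (0.295). They also turned for 10 relations with scores: Mertk with LXR targets (0.414), cholesterol synthesis (-0.203) and mitosis (-0.104), Stab1 with cholesterol synthesis (-0.0035) and mitosis (-0.071), Trem2 with granulocyte precursors (-0.525) and monocytes (-0.511), Tyrobp with the same 2 lists (-0.219 and -0.299) and Mfge8 with monocytes (-0.0044). Signs also turned for 6 pairs and 4 of the 42 relations of VST members with scores that were called neither before nor after. The cause was not tested. Called pairs were 12 of 21, 10 with date in place of plate, 10 without the 6 libraries against their labelled sex and 8 without that component, 5 of them among the 12. Low counts limit Tyro3 and Timd4. No paired analysis was possible because the labels carry no replicate numbers that mice of the 2 sexes share.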
